A study of Mus musculus with 4 samples.

Results

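The genes described here are 10 secreted proteins of the bone morphogenetic protein (BMP) pathway: the ligands Bmp2, Bmp4, Bmp5, Bmp6 and Gdf10, and the extracellular antagonists and modulators Bmper, Fst, Fstl1, Grem1 and Chrdl1. They were chosen by gene symbol, and all 10 were present in each library among the 32285 features measured. CD45- thymic stromal cells of untreated 6-month-old C57BL/6 mice were profiled by droplet-based single-cell RNA-seq. The control group (WT) was wild type, and the mutant group (Z/Z) was homozygous for the LacZ allele of Foxn1, which lowers but does not abolish the amount of this transcription factor of thymic epithelial cells (TECs). There were 2 libraries per group (WT 1, WT 2, Z/Z 1 and Z/Z 2), and thymi of several mice were pooled, so differences between mice were averaged within a library. Nothing in the labels says that libraries of a group came from separate pools, so p-values measure only the spread between these libraries, which may be technical. The protocol gives the mice as female and the sample characteristics as male.

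BMPs are secreted dimers that bind pairs of type I and type II serine/threonine kinase receptors, which phosphorylate receptor-activated Smads. These join Smad4 in the nucleus and induce targets such as the Id genes. Antagonists bind the ligands outside the cell and keep them from their receptors. In the thymus, BMP4 from mesenchyme and endothelium is known as a signal to TECs and as an inducer of Foxn1, so where each ligand and antagonist is made, and whether this differs in Z/Z mice, is the question these data address.

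The 4 libraries held 13981 called cells, of which 9847 were kept. WT 2 was the smallest, with 456 kept cells, whereas WT 1 had 1458 and the Z/Z libraries 4456 (Z/Z 1) and 3477 (Z/Z 2). Called cells contained between 8468086 (WT 2) and 50705511 (Z/Z 1) unique molecular identifiers (UMIs), and sequencing saturation was 65.2% to 95.2%. Many called barcodes occurred in both libraries of a genotype (202 in WT and 249 in Z/Z), and at most 6 occurred in libraries of different genotype. Where both copies of a shared barcode were kept, 1 copy was deep and the other shallow (medians of 62829 against 2195.5 UMIs in WT and 96909 against 2228 in Z/Z). In TECs, cells with a shared barcode made up 52 of 104 in WT 2, 54 of 552 in WT 1, 150 of 1958 in Z/Z 1 and 64 of 1548 in Z/Z 2, so the calls in lineages, the tested classes and the lineage differences are given with and without these cells. Foxn1 itself, the targeted gene, stood at 85.0, 112, 53.6 and 71.3 CPM (UMIs scaled to library size) in TECs of WT 1, WT 2, Z/Z 1 and Z/Z 2 (log2 fold change -0.65, SE 0.22, adjusted p = 0.090 by edgeR). Both Z/Z libraries were lower, but the difference did not pass the threshold of 0.05, and these counts do not tell transcripts of the LacZ allele from those of the intact gene.

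Promoter sequences are shown for the 6 members that differed in TECs or fibroblasts below and have an entry in the RefSeq promoter table (GRCm38.p6, 250 bases before to 50 after the start). That table had entries for 7 of the 10 members, and the entry not printed is that of Bmp5. Capitals mark GACGC, the core of the site bound by FOXN1, and GGCGCC, the GC-rich element bound by Smad1 and Smad5. Both were searched on both strands. Either is a match of letters and not a site.
Bmp4 (chr14:46390620-46390919, minus strand): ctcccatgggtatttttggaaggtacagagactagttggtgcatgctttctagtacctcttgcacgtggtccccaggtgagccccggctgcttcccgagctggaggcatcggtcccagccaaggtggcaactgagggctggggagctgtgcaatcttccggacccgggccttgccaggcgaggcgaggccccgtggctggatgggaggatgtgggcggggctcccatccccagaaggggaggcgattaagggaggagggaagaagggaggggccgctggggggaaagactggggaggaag
Bmp6 (chr13:38345466-38345765, plus strand): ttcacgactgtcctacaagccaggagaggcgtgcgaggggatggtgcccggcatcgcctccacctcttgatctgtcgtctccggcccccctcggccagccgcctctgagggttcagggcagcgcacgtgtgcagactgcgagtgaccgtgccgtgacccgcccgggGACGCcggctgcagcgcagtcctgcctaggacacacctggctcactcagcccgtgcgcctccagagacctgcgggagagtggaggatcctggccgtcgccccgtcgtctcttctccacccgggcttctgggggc
Gdf10 (chr14:33923337-33923636, plus strand): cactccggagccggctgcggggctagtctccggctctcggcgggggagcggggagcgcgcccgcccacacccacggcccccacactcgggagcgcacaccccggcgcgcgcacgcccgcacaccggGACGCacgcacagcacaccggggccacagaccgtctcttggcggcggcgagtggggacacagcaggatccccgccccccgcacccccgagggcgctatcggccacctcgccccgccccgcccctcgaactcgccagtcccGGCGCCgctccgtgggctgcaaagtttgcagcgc
Bmper (chr9:23222826-23223125, plus strand): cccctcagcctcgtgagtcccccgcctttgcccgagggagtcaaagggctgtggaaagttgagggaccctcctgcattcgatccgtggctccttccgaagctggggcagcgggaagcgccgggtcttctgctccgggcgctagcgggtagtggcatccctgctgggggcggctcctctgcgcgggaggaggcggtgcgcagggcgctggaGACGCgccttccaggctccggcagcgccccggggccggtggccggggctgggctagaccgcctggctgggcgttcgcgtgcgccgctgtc
Fstl1 (chr16:37776805-37777104, plus strand): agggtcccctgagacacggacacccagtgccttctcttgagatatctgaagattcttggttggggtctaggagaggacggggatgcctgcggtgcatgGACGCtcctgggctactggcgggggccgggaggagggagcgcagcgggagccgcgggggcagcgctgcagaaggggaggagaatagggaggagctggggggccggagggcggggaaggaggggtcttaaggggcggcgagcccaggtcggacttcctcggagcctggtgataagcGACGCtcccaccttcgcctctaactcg
Grem1 (chr2:113758599-113758898, minus strand): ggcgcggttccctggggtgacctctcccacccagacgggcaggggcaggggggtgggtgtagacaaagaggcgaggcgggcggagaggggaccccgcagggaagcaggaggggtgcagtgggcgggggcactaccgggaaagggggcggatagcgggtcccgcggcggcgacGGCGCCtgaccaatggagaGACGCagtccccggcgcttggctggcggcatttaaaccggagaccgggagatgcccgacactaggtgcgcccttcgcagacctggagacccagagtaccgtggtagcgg

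GACGC was found in 5 of these 6 promoters, with 2 matches in Fstl1, 1 each in Bmp6, Gdf10, Bmper and Grem1, and 0 in Bmp4. GGCGCC was found in Gdf10 and Grem1. Among all 27025 promoters of the table, 27.4% held GACGC and 12.0% held GGCGCC. The GC content of the 6 sequences was 64% to 77.3%, against a median of 52.7% over all promoters, and both motifs are GC-rich.

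Cells were clustered without the members or the pathway genes described below, and clusters were named from markers. Levels in a cell class are given as CPM of the UMIs summed over its cells in a library, as the mean of the libraries with at least 10 such cells and their SD. Clusters were not tested against each other. The unnamed fibroblast cluster led by Inmt and C7 (75, 23, 349 and 330 cells in WT 1, WT 2, Z/Z 1 and Z/Z 2) also had Penk, Fgf7, Fgf10, Gdf10 and Bmper among its 10 leading genes, and is called the Inmt C7 fibroblast cluster.

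**Figure D1:**
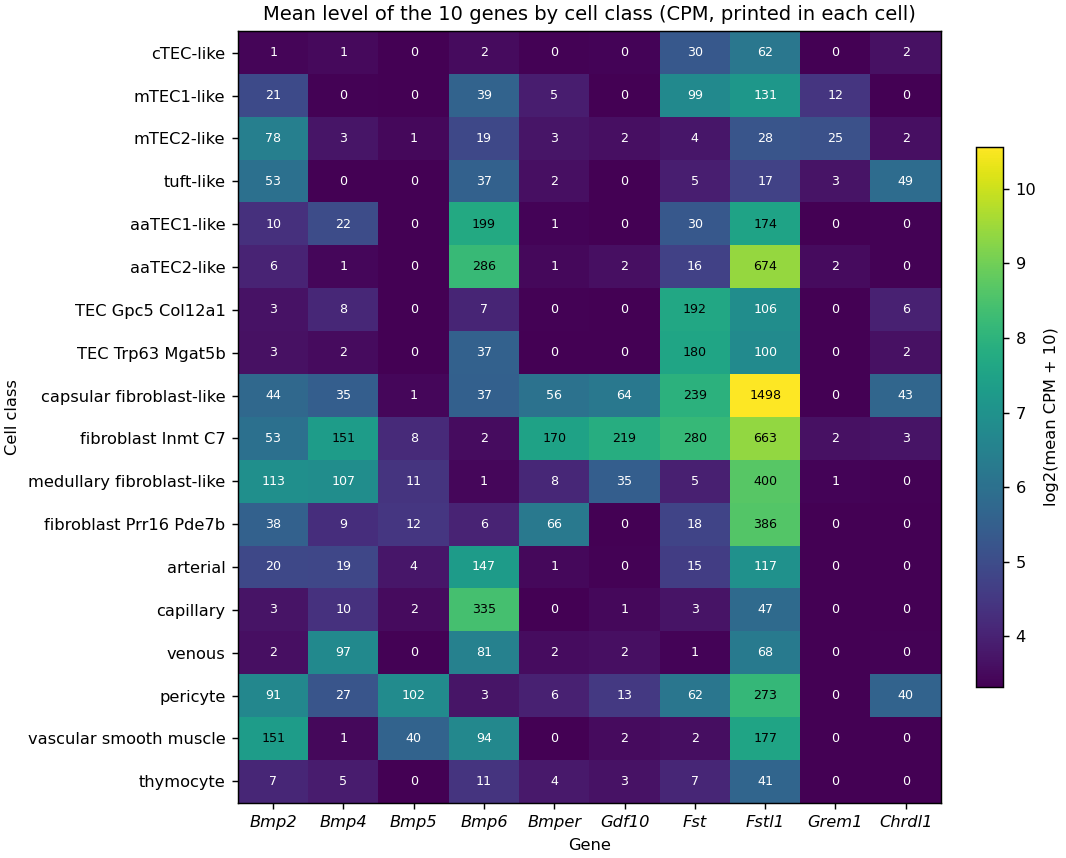
Level of the 10 genes (columns) in each cell class (rows), as the mean CPM over libraries with at least 10 cells on a log2(CPM + 10) color scale, with the CPM printed in each field. Bmper, Gdf10 and Fst share their highest value in the Inmt C7 fibroblast cluster (170, 219 and 280 CPM), whereas Grem1 is highest in mTEC2-like cells (24.5 CPM) and Bmp6 in capillary endothelial cells (335 CPM).

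Among the ligands, Bmp2 (chr2:133552159-133562885, plus strand), a regulator of bone and epithelial differentiation, was highest in vascular smooth muscle cells at 151 ± 16.4 CPM (SD, n = 3). Medullary fibroblast-like cells (113 ± 21.8 CPM, n = 4), pericytes (91.2 ± 30.1 CPM, n = 3) and mTEC2-like cells, the Aire-expressing medullary TECs (77.8 ± 9.6 CPM, n = 4), followed. The library values of medullary fibroblast-like cells, pericytes and mTEC2-like cells overlapped, whereas those of vascular smooth muscle cells lay above those of medullary fibroblast-like cells.

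Bmp4 (chr14:46383520-46390669, minus strand), the ligand best known in thymus growth and repair, was mainly a fibroblast transcript. The Inmt C7 fibroblast cluster had 151 ± 35.2 CPM (n = 4) and medullary fibroblast-like cells 107 ± 16.8 CPM (n = 4), with overlapping libraries. Venous endothelial cells came next at 97.2 ± 52.7 CPM (n = 3), a mean that spanned 38.7 CPM in WT 1 and 112 and 141 CPM in the Z/Z libraries. Fibroblasts carried 94.0% and 96.3% of all Bmp4 UMIs of kept cells in WT 1 and WT 2, and 67.4% and 61.0% in Z/Z 1 and Z/Z 2, where endothelial cells (11.4% and 20.9%) and TECs (18.1% and 14.2%) held more. These shares also follow the number of cells captured in each lineage.

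Bmp5 (chr9:75775364-75900310, plus strand) had its highest levels in cells of the vessel wall. Pericytes had 102 ± 68.7 CPM (n = 3) and vascular smooth muscle cells 39.5 ± 13.7 CPM (n = 3), and their libraries overlapped. The pericyte value of WT 1 (180 CPM) was 10 UMIs from 2 of 11 cells, against 51.1 and 74.1 CPM in Z/Z 1 and Z/Z 2. Of all Bmp5 UMIs, fibroblasts held 38.9%, 64.7%, 49.2% and 47.2% in WT 1, WT 2, Z/Z 1 and Z/Z 2. Pericytes and vascular smooth muscle cells together held 37.0%, 35.3%, 39.8% and 42.9%. Bmp6 (chr13:38345107-38500302, plus strand), the ligand that liver endothelium uses to control iron through hepcidin, was highest in capillary endothelial cells. Capillary endothelial cells had 335 ± 69.4 CPM (n = 4), aaTEC2-like cells 286 ± 166 CPM (n = 3) and aaTEC1-like cells 199 ± 111 CPM (n = 4), and the libraries of these 3 classes overlapped. Between the aaTEC classes stood an unnamed cluster found only in Z/Z (244 CPM, n = 2) and the mesothelial cells of Z/Z 2 (240.1 CPM), and vascular smooth muscle cells had 93.9 CPM (n = 3), more than venous endothelial cells (80.9 CPM, n = 3), with overlap. Here aaTEC1-like and aaTEC2-like name TEC clusters with markers of the age-associated TECs, among them Otog and Kif19a for the first and Nos1 for the second.

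Gdf10 (chr14:33923587-33937983, plus strand), also known as Bmp3b, was mostly a fibroblast transcript, since fibroblasts held 85.2% to 97.8% of its UMIs in the 4 libraries. The Inmt C7 fibroblast cluster had 219 ± 78.0 CPM (n = 4), above capsular fibroblast-like cells (63.8 ± 45.9 CPM, n = 4) without overlap of the libraries. Bmper (chr9:23223076-23485200, plus strand), an extracellular modulator that binds BMPs and can act for or against them, was distributed much like Gdf10. It stood at 170 ± 89.3 CPM (n = 4) in the Inmt C7 fibroblast cluster, with 278 and 71.1 CPM in the WT libraries and 201 and 131 CPM in the Z/Z libraries, and at 55.9 ± 35.9 CPM (n = 4) in capsular fibroblast-like cells. Across 21 cell classes the correlation of log2(CPM + 10) between Bmper and Gdf10 was 0.88, the highest among pairs of members. Classes share libraries and differ in depth, and this value is descriptive.

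Fst (chr13:114452290-114458951, minus strand) encodes follistatin, which binds activins tightly and several BMPs. It was high in both fibroblasts and TECs. The Inmt C7 fibroblast cluster had 280 ± 50.5 CPM (n = 4) and capsular fibroblast-like cells 239 ± 79.2 CPM (n = 4), followed by a TEC cluster led by Gpc5 and Col12a1 (192 ± 99.0 CPM, n = 4) and a TEC cluster led by Trp63 and Mgat5b (180 ± 46.0 CPM, n = 3). Neighbors in this order overlapped.

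Fstl1 (chr16:37776873-37836514, plus strand), a follistatin-like glycoprotein that antagonizes BMP4 signaling, was detected in most stromal classes. Capsular fibroblast-like cells stood above the other classes at 1498 ± 161 CPM (n = 4). Among TECs, aaTEC2-like cells had 713 CPM in WT 1 (12 cells), 659.6 in Z/Z 1 and 650.7 in Z/Z 2, and WT 2 had 0 such cells. These values lay in the range of the Inmt C7 fibroblast cluster (663 ± 103 CPM, n = 4).

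Grem1 (chr2:113746164-113758646, minus strand), the antagonist Gremlin, was almost wholly epithelial, since TECs held 91.9% to 98.8% of its UMIs. Its level in mTEC2-like cells was 22.1, 20.0, 25.8 and 30.1 CPM in WT 1, WT 2, Z/Z 1 and Z/Z 2, above mTEC1-like cells (11.8 ± 6.2 CPM, n = 3) without overlap. The mTEC2-like levels came from 33 of 281, 3 of 47, 9 of 65 and 13 of 87 cells, with 166, 28, 36 and 69 Grem1 UMIs. Without the cells whose barcodes were shared, the mean in mTEC2-like cells was 13.9 CPM in place of 24.5 CPM. Chrdl1 (chrX:143285674-143394262, minus strand), a chordin-like BMP antagonist, was spread over rare classes. It reached 110 CPM in the 27 mesothelial cells of Z/Z 2, 76.7 and 20.5 CPM in the tuft-like cells of WT 1 and Z/Z 2, and 42.7 ± 10.8 CPM (n = 4) in capsular fibroblast-like cells.

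Thymocytes, which should lack these genes, were used as a gauge of free RNA. At 2000 UMIs per cell, Grem1 and Chrdl1 were found in 0 thymocytes of every library, and in WT 1 and WT 2 the share of thymocytes with a UMI did not exceed 2.5% for any member. Z/Z 2 stood apart, with Fstl1 UMIs in 29 of 118 thinned thymocytes (24.6%), Bmp6 in 7.63%, Fst in 5.08% and Bmp2 in 4.24%. Of the 136 thymocytes of Z/Z 2, 91 fell in a cluster with few UMIs per cell (median 0.328 of the library median). That cluster had 7, 0 and 0 cells in WT 1, WT 2 and Z/Z 1, so the Z/Z 2 shares may not give the background of the other classes. In TECs at the same depth, Fstl1 was found in 10.7% and 8.82% of cells in WT 1 and WT 2 and in 30.2% of cells in both Z/Z 1 and Z/Z 2, so in Z/Z 2 the share in TECs was close to that in thymocytes. Without thinning, Fstl1 was found in 29.3%, 37.5%, 56.0% and 55.8% of TECs. Z/Z 1 had 15 thymocytes, and 0 of them had a Fstl1 UMI at this depth, which allows a share of up to 20%.

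In TECs, the set split by genotype, with Fstl1, Bmp4 and Fst higher in Z/Z and Bmp2, Grem1 and Chrdl1 lower. UMIs were summed per library and compared with edgeR's quasi-likelihood test at a Benjamini-Hochberg adjusted p under 0.05 over all genes, and 9 of the 10 members were measured deeply enough to be tested (not Bmp5). Of these, 3 were higher and 3 lower. Over all genes tested in TECs, 21.0% passed (9.28% higher and 11.8% lower), and the median log2 fold change was -0.77 for the tested members and -0.01 for all genes. The TMM-scaled levels of 8 members did not overlap between the genotypes, against 67.7% of all genes.

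Fstl1 had the largest log2 fold change of the members that rose in TECs. It stood at 41.3 CPM in WT 1 and 41.2 in WT 2 against 224 in Z/Z 1 and 211 in Z/Z 2 (log2 fold change 2.40, SE 0.14, adjusted p = 0.0073). Libraries of the same genotype were close to each other, and the genotypes were far apart. Bmp4 stood at 2.40, 3.33, 13.5 and 8.90 CPM in WT 1, WT 2, Z/Z 1 and Z/Z 2 (2.03, SE 0.40, adjusted p = 0.026). These are low levels, resting on 31 and 8 UMIs in WT and 261 and 155 in Z/Z. Fst stood at 34.7, 29.9, 79.3 and 61.8 CPM in the same order (1.11, SE 0.20, adjusted p = 0.020).

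Of the members that fell in Z/Z TECs, Bmp2 stood at 46.6 and 55.3 CPM in WT 1 and WT 2 against 12.4 and 15.6 in Z/Z 1 and Z/Z 2 (log2 fold change -1.86, SE 0.21, adjusted p = 0.0096). Grem1 stood at 13.7, 14.1, 3.36 and 4.88 CPM (-1.75, SE 0.33, adjusted p = 0.023). Its WT 2 value was 34 UMIs from 4 of 104 TECs. Chrdl1 stood at 9.38, 10.8, 1.76 and 1.15 CPM (-2.77, SE 0.41, adjusted p = 0.014). For each of the 3, both Z/Z libraries lay below both WT libraries. Bmp6 (36.3, 46.2, 84.3 and 60.9 CPM, adjusted p = 0.057) and Bmper (4.03, 2.91, 1.14 and 0.977 CPM, adjusted p = 0.056) also did not overlap between genotypes but missed the threshold, and Gdf10 (2.56, 0, 1.34 and 0.574 CPM, adjusted p = 0.62) overlapped.

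**Figure D2:**
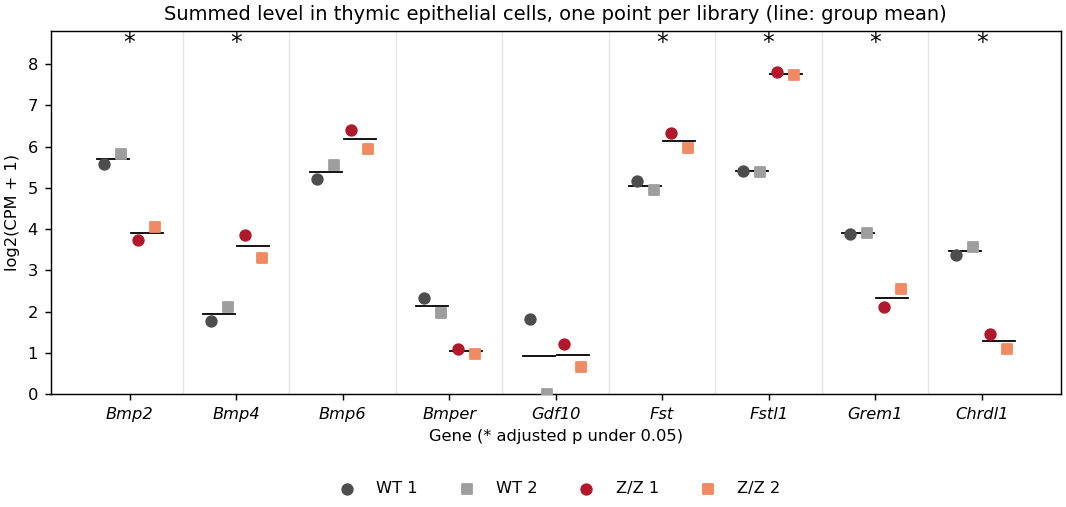
Level of each tested member in TECs as TMM-scaled CPM of summed UMIs on a log2(CPM + 1) axis, with 1 point per library and a line at each genotype's mean. Fstl1 lies at 41.2 to 41.3 CPM in WT and 211 to 224 CPM in Z/Z, whereas Bmp2 lies at 46.6 to 55.3 CPM in WT and 12.4 to 15.6 CPM in Z/Z.

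The TEC sums of the genotypes held different classes of cells. Of the TECs in WT 1 and WT 2, 50.9% and 45.2% were mTEC2-like, against 3.32% and 5.62% in Z/Z 1 and Z/Z 2, whereas aaTEC2-like cells were 2.17% and 0% against 28.1% and 24.5%. mTEC2-like cells held 89.5% and 86.5% of TEC Bmp2 UMIs in WT 1 and WT 2 and 51.7% and 57.4% in Z/Z 1 and Z/Z 2. Within them, Bmp2 stood at 72.5, 85.6, 87.5 and 70.7 TMM-scaled CPM in WT 1, WT 2, Z/Z 1 and Z/Z 2, with the genotypes overlapping (log2 fold change 0.00, SE 0.22, adjusted p = 0.99). Grem1 did not pass within mTEC2-like cells either (0.39, SE 0.28, adjusted p = 0.57). Fstl1 stood at 13.9 and 5.95 CPM in WT 1 and WT 2 against 55.8 and 36.2 in Z/Z 1 and Z/Z 2 within this class, without overlap (2.10, SE 0.48, adjusted p = 0.27). In empty droplets Fstl1 stood at 186, 55.6, 260 and 186 CPM in the same order, above its level in this class in each library. The part of free RNA in this difference was not tested. Of the 4 members tested in mTEC2-like cells 0 passed by edgeR, against 0.0157% of all genes. Fstl1 was the 1 member below 0.05 before adjustment, as were 1692 of all 12762 genes tested.

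**Figure D3:**
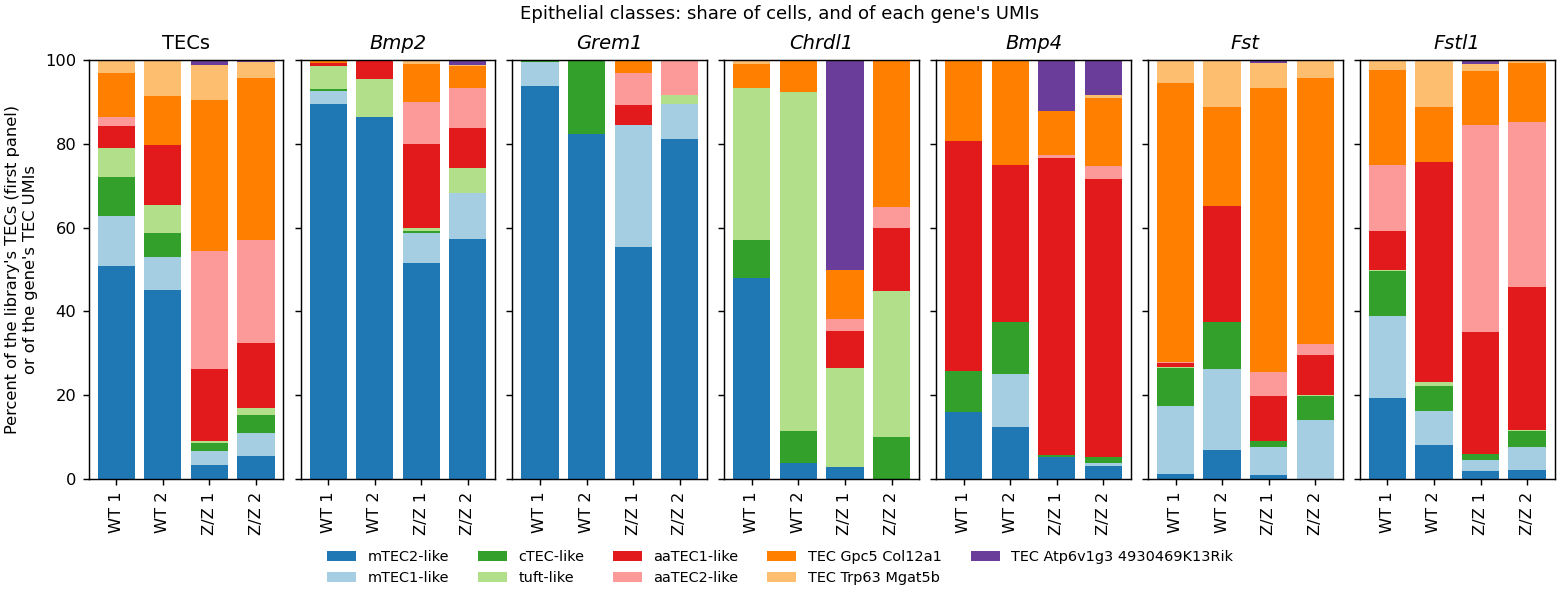
Share of each TEC class in the TECs of each library (first panel) and in their Bmp2, Grem1, Chrdl1, Bmp4, Fst and Fstl1 UMIs, as stacked bars in percent. mTEC2-like cells fall from 50.9% and 45.2% of WT TECs to 3.32% and 5.62% of Z/Z TECs and hold most Bmp2 UMIs in each library, whereas aaTEC1-like and aaTEC2-like cells hold most Fstl1 UMIs in Z/Z.

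When mTEC2-like cells were left out of the TEC sums, an alternative chosen after seeing the data, Fstl1 (log2 fold change 1.33, adjusted p = 0.022) and Chrdl1 (-3.55, adjusted p = 0.024) still passed, with 3.70% of all genes passing. Bmp2 (-1.14, adjusted p = 0.11), Grem1 (-1.39, adjusted p = 0.29), Bmp4 (0.96, adjusted p = 0.20) and Fst (-0.12, adjusted p = 0.79) did not. When aaTEC1-like and aaTEC2-like cells were left out instead, Fstl1 (1.71), Fst (1.79), Bmp2 (-1.54), Chrdl1 (-2.29) and Bmper (-2.22) passed, and Bmp4 (1.91, adjusted p = 0.084) and Grem1 (-1.23, adjusted p = 0.055) did not. In that setting 2645 of all 18127 genes tested passed. A change in the mix of TEC classes and a change of level within classes cannot be told apart in the sums alone.

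Among TEC classes, aaTEC1-like cells held 54.8% and 37.5% of TEC Bmp4 UMIs in WT 1 and WT 2 (31 and 8 UMIs in all) and 70.9% and 66.5% in Z/Z 1 and Z/Z 2. Within aaTEC1-like cells Bmp4 stood at 30.8, 10.2, 27.4 and 20.2 CPM in WT 1, WT 2, Z/Z 1 and Z/Z 2, and the genotypes overlapped. aaTEC1-like and aaTEC2-like cells together held most of the Bmp6 of Z/Z TECs (52.7% and 37.1% in Z/Z 1, 43.4% and 40.8% in Z/Z 2). Per cell class the direction was the other way, since Bmp6 in aaTEC1-like cells stood at 248, 331, 127 and 90.02 CPM in WT 1, WT 2, Z/Z 1 and Z/Z 2, and in aaTEC2-like cells at 478 CPM in WT 1 (12 cells) against 186 and 194 CPM in the Z/Z libraries. In aaTEC1-like cells both WT libraries lay above both Z/Z libraries. In aaTEC2-like cells WT 1, the only WT library with such cells, lay above them. Neither class was tested, because WT 2 had 15 and 0 such cells. Fst in Z/Z TECs came mostly from the Gpc5 Col12a1 cluster (67.7% and 63.5% of UMIs), which made up 10.5% and 11.5% of WT TECs and 36.0% and 38.6% of Z/Z TECs. Tuft-like cells held 36.4% and 80.8% of TEC Chrdl1 UMIs in WT 1 and WT 2. mTEC2-like cells held 47.9% in WT 1, which was 58 UMIs from 2 of 281 cells, and 3.8% in WT 2. Tuft-like cells numbered 38 of 552 and 7 of 104 TECs in WT 1 and WT 2, and 7 of 1958 and 26 of 1548 in Z/Z 1 and Z/Z 2. The Chrdl1 difference without mTEC2-like cells still includes this change in the share of tuft-like cells.

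Without the cells whose barcodes were shared, 0 members passed in TECs by edgeR and 1 gene of all passed, with 3433 genes at an unadjusted p under 0.05. The 6 members kept their direction, with log2 fold changes of 2.00 for Fstl1, 1.50 for Bmp4, 0.47 for Fst, -1.84 for Bmp2, -1.66 for Grem1 and -2.57 for Chrdl1. When only the shallower copy of each shared barcode was left out, an alternative chosen after seeing the data, all 6 passed. Over all lineages this removed 23, 0, 7 and 27 kept cells from WT 1, WT 2, Z/Z 1 and Z/Z 2. Kept cells with a shared barcode numbered 61, 147, 192 and 71, so this setting says little about their effect. Without Z/Z 1, 0 members and 0 genes of all passed by edgeR (4551 at an unadjusted p under 0.05), and without Z/Z 2 3 members passed (Fstl1, Fst and Bmp2). Without WT 1, Bmp4 missed the threshold (adjusted p = 0.064 by edgeR) and the other 5 passed. Without WT 2 all 6 passed, as did Bmp6 (1.04) and Bmp5, whose WT 1 count was 26 UMIs from 2 cells. With a library left out, the other library of its group is taken to vary like those of the other genotype. Fibroblast markers, 6 of 6 detected, summed to 135 and 115 CPM in TECs of WT 1 and WT 2 and to 280 and 287 CPM in those of Z/Z 1 and Z/Z 2, against 13384 to 17570 CPM in fibroblasts, and 7 of 7 myeloid markers summed to 292 and 704 CPM against 73.7 and 119 CPM. Their part in these results was not tested.

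In fibroblasts Gdf10, Bmper and Fst were higher in Z/Z, and Bmp6 was lower. Of these only Fst was also among the members that rose in TECs. Of the 9 members tested (not Grem1), 3 were higher and 1 lower, whereas over all genes 2.96% passed (1.73% higher and 1.22% lower). The median log2 fold change was 0.45 for the tested members and 0.01 for all genes, and 7 members did not overlap between genotypes, against 50.9% of all genes.

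Gdf10 stood at 24.1 CPM in WT 1 and 47.0 in WT 2 against 153 in Z/Z 1 and 120.1 in Z/Z 2 (log2 fold change 2.01, SE 0.28, adjusted p = 0.0081). Bmper stood at 40.2, 18.2, 97.4 and 84.2 CPM in WT 1, WT 2, Z/Z 1 and Z/Z 2 (1.56, SE 0.29, adjusted p = 0.023). Fst stood at 88.8, 60.0, 178 and 259.9 CPM (1.54, SE 0.24, adjusted p = 0.012). In all 3, both Z/Z libraries lay above both WT libraries, although the WT libraries themselves differed, with Gdf10 lower and Bmper higher in WT 1. Bmp6 stood at 13.6, 18.6, 4.52 and 3.64 CPM (-1.94, SE 0.30, adjusted p = 0.012), lower in both Z/Z libraries. This rests on 117, 53, 52 and 26 UMIs, found without thinning in 6.54%, 4.21%, 2.37% and 1.66% of fibroblasts in the same order.

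The other ligands of fibroblasts did not pass. Bmp4 stood at 95.3, 108, 84.6 and 93.0 CPM in WT 1, WT 2, Z/Z 1 and Z/Z 2 (log2 fold change -0.19, SE 0.15, adjusted p = 0.56), and Bmp2 at 73.0, 97.5, 83.6 and 63.5 CPM (-0.20, SE 0.20, adjusted p = 0.66). The 2 genotypes did not overlap for Bmp4, by a narrow margin, and overlapped for Bmp2. Bmp5 was low, at 4.89, 3.86, 11.3 and 10.8 CPM (1.29, SE 0.30, adjusted p = 0.055). Fstl1, at 819, 561, 735 and 1029 CPM, overlapped between genotypes (0.35, SE 0.23, adjusted p = 0.47), and so Fstl1 passed in TECs but not in fibroblasts. Chrdl1 was at 14.9, 6.31, 15.0 and 16.0 CPM (adjusted p = 0.54).

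**Figure D4:**
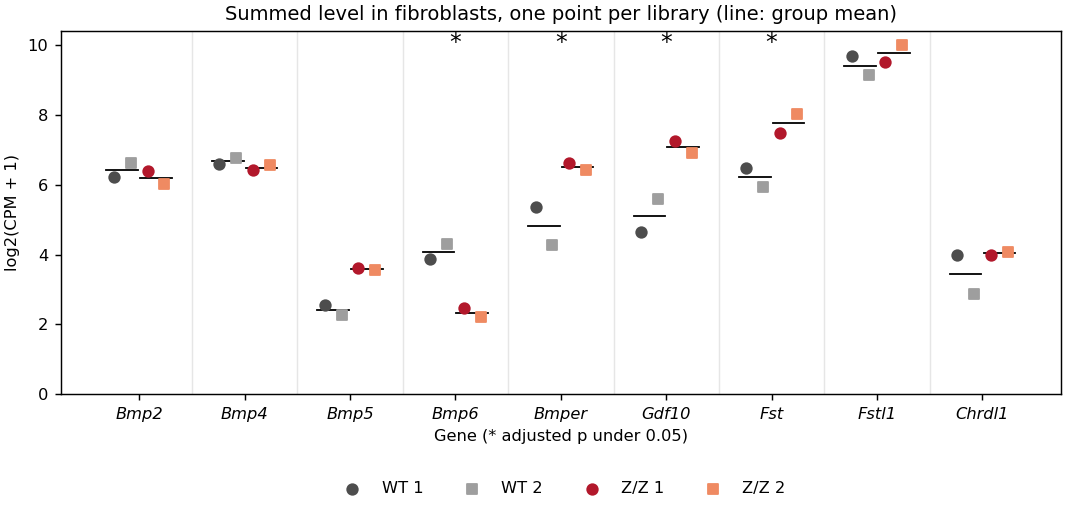
Level of each tested member in fibroblasts as TMM-scaled CPM of summed UMIs on a log2(CPM + 1) axis, with 1 point per library and a line at each genotype's mean. Gdf10 (24.1 to 47.0 CPM in WT, 120.1 to 153 in Z/Z) and Bmp6 (13.6 to 18.6 CPM in WT, 3.64 to 4.52 in Z/Z) separate the genotypes in opposite directions, whereas Bmp4 stays between 84.6 and 108 CPM.

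The Inmt C7 fibroblast cluster, where Gdf10, Bmper and Fst are highest, made up 12.6% and 12.1% of fibroblasts in WT 1 and WT 2 and 30.6% and 45.7% in Z/Z 1 and Z/Z 2. Medullary fibroblast-like cells made up 56.0% and 66.8% against 47.6% and 23.8%. The members were therefore also compared within the 3 fibroblast classes that had at least 20 cells in each library.

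Within capsular fibroblast-like cells, by TMM-scaled CPM (156, 30, 211 and 207 cells in WT 1, WT 2, Z/Z 1 and Z/Z 2), 3 of the 8 members tested passed, against 4.27% of all genes. Bmp6 stood at 41.8, 88.2, 7.75 and 8.43 CPM in WT 1, WT 2, Z/Z 1 and Z/Z 2, lower in both Z/Z libraries (log2 fold change -2.87, SE 0.40, adjusted p = 0.0079). This class held 97.4% and 98.1% of fibroblast Bmp6 UMIs in WT 1 and WT 2 (117 and 53 UMIs in all fibroblasts). In WT 2, 15 of its 30 cells had a shared barcode. Gdf10 stood at 27.5, 23.8, 123 and 86.3 CPM (1.99, SE 0.25, adjusted p = 0.0058), and Bmper at 27.8, 27.1, 107 and 66.2 CPM (1.65, SE 0.28, adjusted p = 0.019), both higher in both Z/Z libraries. Fst (196, 153, 278 and 340.0 CPM) did not overlap but missed the threshold (0.80, SE 0.19, adjusted p = 0.054). Bmp6 and Gdf10 passed with each library left out in turn, and Bmper with each but WT 1. All 3 also passed without the cells with shared barcodes (-2.88 for Bmp6, 2.15 for Gdf10 and 1.56 for Bmper). Gdf10 in empty droplets was also higher in Z/Z, as given below, and the part of free RNA in this class was not tested.

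Within the Inmt C7 fibroblast cluster 0 of the 7 members tested passed by edgeR, against 0.969% of all genes. An unadjusted p under 0.05 was found for 4 members (Bmp4, Bmp5, Fst and Fstl1) and for 1435 of all 10529 genes tested. Gdf10 stood at 123, 287, 299 and 184 CPM in WT 1, WT 2, Z/Z 1 and Z/Z 2 (log2 fold change 0.35, SE 0.34), and Bmper at 268, 71.8, 212 and 133 CPM (-0.13, SE 0.38), both with overlapping genotypes. Fst was at 241, 226, 347 and 319.9 CPM (0.51, SE 0.20, adjusted p = 0.28). Within medullary fibroblast-like cells 0 of 7 members passed by edgeR, against 1.59% of all genes. An unadjusted p under 0.05 was found for 2 members (Bmp5 and Gdf10) and for 1834 of all 11964 genes tested. Gdf10 there stood at 4.57 and 21.5 CPM in WT 1 and WT 2 against 71.1 and 44.7 in Z/Z 1 and Z/Z 2 (2.43, SE 0.52, adjusted p = 0.056). It passed by edgeR without the cells with shared barcodes (3.39, adjusted p = 0.0090). In empty droplets Gdf10 stood at 4.46 and 2.27 CPM in WT 1 and WT 2 and at 52.9 and 22.3 CPM in Z/Z 1 and Z/Z 2. The part of free RNA in the levels within fibroblast classes was not tested. Without WT 2, Bmp5 and Gdf10 passed in the Inmt C7 fibroblast cluster.

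**Figure D5:**
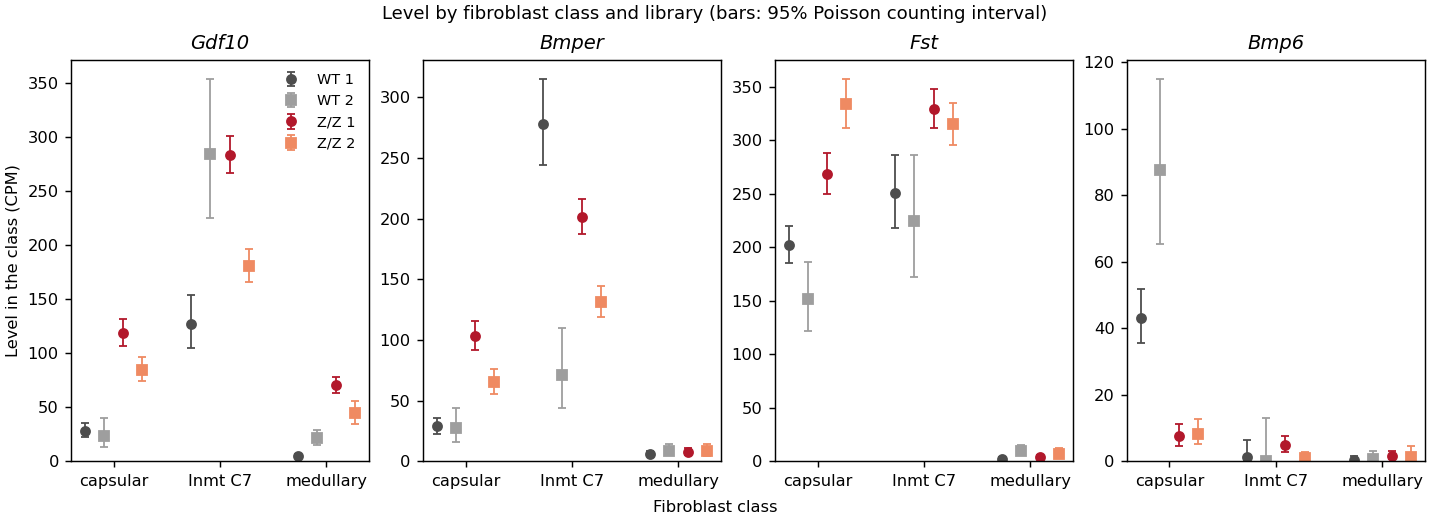
Level of the members called in fibroblasts within each fibroblast class, as CPM of summed UMIs with 1 point per library and bars for the 95% Poisson interval, which covers counting error only. In capsular fibroblast-like cells Gdf10 and Bmper are higher and Bmp6 lower in both Z/Z libraries, whereas in the Inmt C7 fibroblast cluster Gdf10 and Bmper overlap between genotypes.

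The fibroblast calls of Bmp6 (log2 fold change -1.95, adjusted p = 0.038), Bmper (1.36, adjusted p = 0.031) and Gdf10 (2.25, adjusted p = 0.0078) also passed without the cells with shared barcodes, and Fst did not (1.71, adjusted p = 0.079). With Z/Z 1 or Z/Z 2 left out, 0 members and 0 of all genes passed by edgeR, with 1913 and 1396 genes at an unadjusted p under 0.05.

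In endothelial cells 5 members were tested and 0 passed by edgeR, with 1.96% of all genes passing (1.01% higher and 0.942% lower). An unadjusted p under 0.05 was found for 1 member (Bmp4) and for 2095 of all 11353 genes tested. Under DESeq2 0 members passed as well. Bmp4, the ligand linked to endothelium in thymus repair, stood at 20.8, 10.3, 32.4 and 48.0 CPM in WT 1, WT 2, Z/Z 1 and Z/Z 2 (log2 fold change 1.12, SE 0.40, adjusted p = 0.16), and was the 1 member whose genotypes did not overlap, against 53.2% of all genes. WT 2 contributed 25 endothelial cells and 2 Bmp4 UMIs. Bmp6 stood at 291, 159.8, 229 and 186 CPM, with overlap (-0.22, SE 0.26, adjusted p = 0.69). Bmp2, Fst and Fstl1 also overlapped.

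In mural cells (vascular smooth muscle cells and pericytes) 6 members were tested and 0 passed by edgeR, or by DESeq2, which gave Fst no adjusted p. By edgeR 0% of all genes passed, with 755 genes at an unadjusted p under 0.05 and 9 called by DESeq2. WT 2 had 13 mural cells. Fst had 0 UMIs in both WT libraries and 57 and 46 in Z/Z 1 and Z/Z 2. With 0 of 726584 WT UMIs, the level that 3 counts over the group would give is 4.13 CPM, and the Z/Z level of 22.6 CPM is at least 5.46-fold higher. The difference missed the threshold (adjusted p = 0.26 by edgeR), although it was below 0.05 before adjustment. Without WT 2 this difference passed. Bmp2 stood at 135, 113, 144 and 138 CPM and Bmp5 at 68.2, 48.3, 38.6 and 40.0 CPM in WT 1, WT 2, Z/Z 1 and Z/Z 2 (adjusted p = 0.93 and 0.63). Altogether 4 of the 6 members did not overlap, against 42.7% of all genes. All 6 fibroblast markers were detected in Z/Z mural cells and summed to 1089 and 657 CPM in Z/Z 1 and Z/Z 2, against 435 CPM (5 detected) and 607 CPM (6 detected) in WT 1 and WT 2, and Fst in empty droplets stood at 18.7 and 10.2 CPM in WT 1 and WT 2 and at 62.6 and 53.0 CPM in Z/Z 1 and Z/Z 2, above its mural level in every library. Among mural cells at 2000 UMIs, 3.38% in Z/Z 1 and 2.22% in Z/Z 2 had an Fst UMI. In thymocytes of Z/Z 2, most of which came from the cluster with few UMIs given above, the share was 5.08%. In Z/Z 1, 0 of 15 thymocytes had an Fst UMI, too few to set a background. Pericytes held 84.2% and 95.7% of the mural Fst UMIs in Z/Z 1 and Z/Z 2, with 28.4% and 20.2% of all mural UMIs there. The part of fibroblast RNA and free RNA in the mural Fst difference was not tested, and it is not read as a difference in expression.

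Because an effect that passes in 1 lineage and not in another need not differ between them, the difference of the genotype effect was tested in a joint edgeR fit with library as a block. Between fibroblasts and TECs 8 of the 10 members differed, against 12.9% of all genes. The genotype effect was higher in fibroblasts for Bmp2, Bmp5, Bmper, Gdf10 and Chrdl1, and lower for Bmp4, Bmp6 and Fstl1. The difference was 3.34 for Gdf10 (SE 0.67, adjusted p = 0.0043), 3.27 for Bmper (SE 0.45, adjusted p = 0.00050) and -2.73 for Bmp6 (SE 0.38, adjusted p = 0.00041) on the log2 scale. For Fst, which rose in both lineages, it was 0.46 (SE 0.35, adjusted p = 0.45). Without WT 1, 5 members differed, and without the cells with shared barcodes 6 did (not Bmp5 or Fstl1). When mTEC2-like cells were left out of the TECs, 4 members differed by edgeR, namely Bmp6 (-1.96, adjusted p = 0.027), Bmper (2.69, adjusted p = 0.033), Chrdl1 (3.87, adjusted p = 0.0046) and Fst (1.63, adjusted p = 0.015), and Gdf10 turned direction (-3.15, adjusted p = 0.52). The TEC side of the Bmp6 difference did not pass on its own and was -0.042 without mTEC2-like cells. Within the aaTEC classes the WT libraries that had such cells (only WT 1 for aaTEC2-like cells) were higher, as given above. Between endothelial cells and TECs 3 members differed (Bmp2, Bmp5 and Fstl1), against 6.67% of all genes, with 0 without WT 1, without shared barcodes or without mTEC2-like cells, and 1 without Z/Z 1. Between endothelial cells and fibroblasts 0 members differed by edgeR, against 0.380% of all genes, and 2 had an unadjusted p under 0.05 (Bmp4 and Bmp6). With WT 1, Z/Z 1 or Z/Z 2 left out, 1 member differed there.

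Other genes of the pathway were read from the same fits by fixed lists. In TECs, of 12 receptors and co-receptors tested, 6 were higher in Z/Z and 0 lower, against 9.28% higher and 11.8% lower among all TEC genes. These included the type II receptor Bmpr2, at 139, 129, 261 and 242 CPM in WT 1, WT 2, Z/Z 1 and Z/Z 2 (log2 fold change 0.91, adjusted p = 0.014), the type I receptor Bmpr1b (1.12, adjusted p = 0.041), and the co-receptor Rgma (1.54, adjusted p = 0.014). The others were Acvr1b (0.96), Acvrl1 (1.88) and Eng (2.32). Acvrl1 and Eng, receptors typical of endothelium, stood at 0.832 to 1.32 CPM in WT and 4.34 to 6.32 CPM in Z/Z TECs. Endothelial markers in TECs summed to 31.3 and 23.7 CPM in WT 1 and WT 2 (6 and 4 of 6 detected) and to 40.2 and 53.0 CPM in Z/Z 1 and Z/Z 2 (6 of 6 detected), and their part in these values was not tested. The median log2 fold change of the receptors was 0.93, against -0.01 for all genes.

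Of 10 target genes tested in TECs, 5 were higher and 2 lower, where 21.0% of all TEC genes passed in either direction. The inhibitors of differentiation Id3 (232, 234, 776 and 488 CPM in WT 1, WT 2, Z/Z 1 and Z/Z 2, log2 fold change 1.44, adjusted p = 0.019), Id1 (1.22) and Id4 (1.29) were higher, as were Atoh8 (1.59) and Hey1 (1.18). The transcription factors Tbx3 (-2.21) and Dlx5 (-3.00) were lower. Of 8 Smads and their regulators, 0 passed by edgeR. Of 10 other ligands, Gdf11 was higher (2.41) and Bmp3 (-3.44) and Inhbb (-1.10), a subunit of activins and inhibins, were lower. Of 14 other antagonists and modulators, Sostdc1 (-4.24), Fstl5 (-3.05) and Fstl4 (-1.65) were lower and 0 higher, a share near the 21.0% of all genes. Without the cells whose barcodes were shared, 0 of the 19 listed genes called in TECs passed by edgeR. Without mTEC2-like cells, 1 listed gene passed in place of 19, and without Z/Z 1 and without Z/Z 2 the counts were 0 and 4.

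Among the listed genes in fibroblasts, Bmp3 (35.6, 19.3, 0.955 and 4.06 CPM in WT 1, WT 2, Z/Z 1 and Z/Z 2, log2 fold change -3.61, adjusted p = 0.010) and Inhbb (-1.49, adjusted p = 0.026) were lower. With Z/Z 1 or Z/Z 2 left out, 0 of the listed genes passed by edgeR. Receptors (12 tested), Smads (7) and targets (8) had 0 calls by edgeR in fibroblasts. In endothelial cells the ubiquitin ligase Smurf1, which degrades Smads, was lower (127, 108, 62.6 and 53.9 CPM, -1.06, adjusted p = 0.039, not called without either Z/Z library) and 0 of the other genes tested passed. In mural cells 0 passed.

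By the correlation of log2(CPM + 10) across 21 cell classes, among 12738 genes with at least 20 CPM in a class, those most like Grem1 included Lpo (0.97) and Gm11588 (0.95), and those most like Bmper were Fgf7 (0.96), Svep1 (0.95) and Sphkap (0.94). Gdf10 was most like Srpx (0.95), Gpnmb (0.95) and Rspo3 (0.95), and Bmp5 most like Daam2, Npy1r and Cpe (0.90 each). Fstl1 was most like Creb5 (0.91), Numbl (0.90) and Fgfr1 (0.89), and Chrdl1 most like Appl2 (0.89), Sema3c (0.81) and Ahnak2 (0.80). Bmp4 was most like Hexa (0.90), Dpp7 (0.83) and Tcn2 (0.79), and Fst most like Sult5a1 (0.82), Bnc2 (0.82) and Sdk1 (0.78). The closest genes to Bmp2 were Tslp, Ptgir and Pi15 (0.81 each). For Bmp6 they were Tspan7 (0.75), Id1 (0.75) and Itpripl1 (0.73), the lowest likeness among the members. With a pseudocount of 1 CPM in place of 10, 17 of the 30 genes were the same, and Id1 was not among the 3 closest to Bmp6, which were Tspan7, Ephb1 and Lama5. All values share the same libraries and are descriptive.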

How the data were processed

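Droplet-based single-cell RNA-seq libraries of CD45- thymic stromal cells, 2 from WT and 2 from Z/Z mice, were analyzed. Per the labels, the authors mapped reads with Cell Ranger 7.01 to the mouse mm10 (GRCm38.p5) genome and deposited counts of UMIs for each gene in each barcode, not normalized, for called barcodes and for all barcodes. The deposited summaries give sequencing saturation as a percent of reads. The kit is named as v2 in the labels, whereas another part of the methods names a v3 chip.

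Cells with at least 1000 detected genes and under 20% mitochondrial UMIs were kept, and 109 ribosomal protein and haemoglobin features were left out. Doublet scores came from Scrublet within scanpy 1.11.5, run on each library. At its own threshold it would have marked 82 cells (0.80%), so the top 3.9% of scores were removed in place of that call. Cells were brought to 10000 counts and then log-transformed. The 3500 most variable genes, without the members and the pathway lists, were reduced to 35 components and clustered (20 neighbors, leidenalg 0.10.2, resolution 1). Clusters were named from marker lists, by thresholds that were chosen once the data had been seen, so names may differ from those of the study. A cluster with more markers of another class than of its own among its 10 leading genes was left without a class name.

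UMIs were summed per library and lineage or class, and libraries were the replicates. Groups were compared with edgeR 4.0.16 (quasi-likelihood F test, TMM factors, filterByExpr, two-sided, R 4.3.3) at a Benjamini-Hochberg adjusted p of 0.05 over all genes, and this was tested on simulated data. DESeq2 1.42.0 was an alternative. Classes needed 20 cells in each library to be tested and 10 cells in a library for its level to be averaged. Shares of cells with a UMI were compared at 2000 UMIs per cell by an exact permutation test over libraries, which cannot go below p = 0.333 with 2 against 2 libraries. Counting intervals and floors (3 counts) cover counting error only. Gene positions came from the GENCODE vM21 annotation of GRCm38. Named genes were all 10 members in each lineage, each gene of the fixed pathway lists past the threshold, and the 3 genes most correlated with each member. Results for some genes under this rule are not reported here. The members and lists were chosen with earlier results of these data known.

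Alternatives were other size factors, no filter on low counts, DESeq2, the replicate number as a block, each library left out in turn, cells thinned to 2000 UMIs, 10% of empty-droplet RNA subtracted (profile of barcodes with 1 to 50 UMIs), cells with shared barcodes left out, under 10% mitochondrial UMIs, the 10% highest doublet scores left out, and other clustering resolutions. Leaving out the mTEC2-like cells, the aaTEC1-like and aaTEC2-like cells or the shallower copy of a shared barcode, and applying alternatives to the classes, the lineage differences and the pathway lists, were chosen after seeing the data.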

Additional observations from a re-analysis of the deposited data

Results flagged for a closer look

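For 8 members the Z/Z effect differed between fibroblasts and TECs in a joint edgeR fit with library as a block, given as the log2 fold change in fibroblasts minus that in TECs. The difference was 1.70 for Bmp2, 5.15 for Bmp5, 3.27 for Bmper, 3.34 for Gdf10 and 3.27 for Chrdl1, and -2.23 for Bmp4, -2.73 for Bmp6 and -2.03 for Fstl1. Gdf10 and Bmper rose in fibroblasts, and in TECs neither passed. Bmp6 fell in fibroblasts and did not pass in TECs, where both Z/Z libraries were higher. Fstl1 and Bmp4 rose in TECs, and in fibroblasts neither passed. Bmp5 was too low in TECs to be tested there on its own, and Gdf10 had 0 UMIs in TECs of WT 2, so the size of both differences depends on few counts. Without mTEC2-like cells 4 members differed, and the value of Gdf10 was -3.15 by edgeR.

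For 3 members the effect differed between endothelial cells and TECs, given as endothelial minus TEC. The difference was 2.15 for Bmp2, -2.21 for Fstl1 and 11.8 for Bmp5, and 0 members differed without mTEC2-like cells or without shared barcodes. Bmp5 had 0 UMIs in endothelial cells of both WT libraries, so its value is set by how the fit treats counts of 0 and is no measure of size. Classes of TECs with different levels of Bmp2 and Fstl1 took different shares of the cells in the genotypes, as described above.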

How the results depend on the processing

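Of the alternatives to the TEC and fibroblast comparisons, other size factors, DESeq2, no filter on low counts, under 10% mitochondrial UMIs and the 10% highest doublet scores left out kept the number of members called within 1.5 times. In TECs, with 6 members called, the count was 0 without cells with shared barcodes, 2 without mTEC2-like cells and 0 to 8 with each library left out in turn. Among all TEC genes the count of 3967 became 1 and 609 under the first 2 of these and 0 to 4221 with a library left out. In fibroblasts, with 4 members called, it was 2 at 2000 UMIs per cell and 0 to 4 with a library left out. Among all fibroblast genes the count of 409 became 1364 with no filter on low counts, 157 at 2000 UMIs per cell, 239 without shared barcodes and 0 to 444 with a library left out. In endothelial cells the 222 genes became 731 with no filter, 47 at 2000 UMIs, 77 with empty-droplet RNA subtracted, 56 without shared barcodes, 98 without the highest doublet scores and 76 to 368 with a library left out. In mural cells 0 members and 0 genes were called by edgeR (755 genes at an unadjusted p under 0.05), against 1 member (Fst) and 127 genes with no filter, 9 genes by DESeq2, 3 with under 10% mitochondrial UMIs, and 0 to 1 members and 11 to 645 genes with a library left out.

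The replicate number of the labels was not treated as a pairing. Over all genes, same-numbered libraries did not deviate together (r = -0.08 in TECs, -0.04 in fibroblasts, -0.01 in endothelial and -0.06 in mural cells). This does not exclude a shared effect on some genes. With the replicate number as a block, all genes called were 2497 in TECs, 217 in fibroblasts, 363 in endothelial and 42 in mural cells. Without it they were 3967, 409, 222 and 0. Under the block, listed pathway genes called were 9, 1, 0 and 0, and mural Fst passed. The log2 fold change of Fstl1 in endothelial cells was 0.080 and that of Bmp6 in mural cells -0.014 under the block.

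Listed pathway genes called in TECs, 19 in all, were 8 at 2000 UMIs, 10 with empty-droplet RNA subtracted, 0 without shared barcodes, 1 without mTEC2-like cells, 10 without aaTEC1-like and aaTEC2-like cells and 0 to 23 with a library left out. In fibroblasts, with 3, they were 8 with no filter, 1 at 2000 UMIs and 0 to 3 with a library left out. In endothelial cells, with 1, they were 2 with no filter, 0 by DESeq2, at 2000 UMIs, with empty-droplet RNA subtracted, without shared barcodes and without the highest doublet scores, and 0 to 3 with a library left out, and in mural cells 0 to 2. With a library left out, members called ranged over 0 to 1 in medullary fibroblast-like cells, 0 to 2 in the Inmt C7 fibroblast cluster, 5 to 8 for fibroblasts minus TECs, 0 to 3 for endothelial cells minus TECs and 0 to 1 for endothelial cells minus fibroblasts. For endothelial cells minus TECs the count of 3 was 0 without shared barcodes and 0 without mTEC2-like cells, and for fibroblasts minus TECs the count of 8 was 4 without mTEC2-like cells. In medullary fibroblast-like cells the count of 0 by edgeR was 1 (Gdf10) without shared barcodes.

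These log2 fold changes turned direction. In TECs without mTEC2-like cells, Bmp6 was -0.042 and Fst -0.12. With a library left out, TEC Gdf10 ranged from -1.39 to 6.67 and fibroblast Bmp2 from -0.41 to 0.020. Endothelial values then ranged from -0.38 to 0.44 for Bmp2, -0.48 to 0.47 for Bmp6, -0.32 to 7.14 for Fst and -0.26 to 0.86 for Fstl1, and mural values from -0.41 to 0.41 for Bmp6 and -1.03 to 2.63 for Chrdl1. Endothelial Bmp2 was -0.21 without the highest doublet scores, Bmp6 0.12 at 2000 UMIs, and Fst -0.00042 without shared barcodes and -0.019 under 10% mitochondrial UMIs. Endothelial Fstl1 was 0.062 with no filter, 0.044 by DESeq2 and 0.053 at 2000 UMIs. Mural Bmp6 was -0.052 by DESeq2 and -0.018 under 10% mitochondrial UMIs. Of these only TEC Fst was called in the comparison as reported, and the cause of each turn was not tested. Without thinning, the Z/Z minus WT difference in the percent of cells with a UMI was -3.13 for Fstl1 in endothelial cells in place of 1.01, and in mural cells -0.29 for Bmp4, -2.32 for Bmp6, -0.58 for Bmper, -13.0 for Fstl1 and -5.24 for Chrdl1.

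At 2 times the clustering resolution the level in the highest class was 171 CPM for Bmp2, 411 for Bmp6 and 428 for Fst, and without shared barcodes it was 13.9 for Grem1. For Chrdl1 it was 92.6 CPM at 2000 UMIs and 121 with empty-droplet RNA subtracted. At 0.5 and 2 times the resolution 6 of 10 members had a highest class of the same name, and the Inmt C7 cells were split or named otherwise there. With 2 libraries per group, 25 endothelial and 13 mural cells in WT 2 limit what could be detected in these lineages.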

Other observations

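Several rare clusters carried members of the set and had cells only in the Z/Z libraries. An unnamed cluster led by Ctnna2 and Ncam2, with S100b and Ncam1 among its leading genes, had 112 and 32 cells in Z/Z 1 and Z/Z 2 and 0 in WT. Bmp6 stood there at 288 and 199.9 CPM and Fstl1 at 519 and 469 CPM. In aaTEC2-like cells of the Z/Z libraries Bmp6 stood at 186 and 194 CPM and Fstl1 at 659.6 and 650.7 CPM. A TEC cluster led by Atp6v1g3, with the ionocyte genes Cftr and Foxi1 among its leading genes, had 21 and 8 cells in Z/Z 1 and Z/Z 2. Its Bmp4 stood at 93.9 and 127 CPM, from 32 and 13 UMIs, and it held 12.3% and 8.4% of the Bmp4 UMIs of Z/Z TECs. It also held 50% of the Chrdl1 UMIs of TECs in Z/Z 1 and 0% in Z/Z 2. With 2 smaller WT libraries, clusters of this size may have been missed in WT.

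In the Inmt C7 fibroblast cluster thinned to 2000 UMIs per cell, Gdf10 and Bmper UMIs were found in the same cell in 25 of 348 cells of Z/Z 1 (103 with Gdf10, 81 with Bmper) and in 11 of 327 cells of Z/Z 2 (86 and 50). Bmp4 and Fst UMIs were found together in 25 cells of Z/Z 1 (74 with Bmp4, 118 with Fst) and in 17 cells of Z/Z 2 (60 and 104). In WT 1 (71 cells) and WT 2 (23 cells), Gdf10 and Bmper were found together in 5 and 1 cells, and Bmp4 and Fst in 4 and 1. Whether these counts exceed those of independent detection was not tested, and they are not read as co-expression. Bmp4 and Grem1 were found together in 0 thinned cells of this cluster, of capsular fibroblast-like, aaTEC2-like and venous endothelial cells in each library, and Grem1 itself had a UMI in at most 2 thinned cells of any of these.

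In venous endothelial cells Bmp4 stood at 38.7 CPM in WT 1 (26 cells), 25.2 in WT 2 (5 cells), 112 in Z/Z 1 (86 cells) and 141 in Z/Z 2 (107 cells). These levels rest on 12, 1, 103 and 158 UMIs. The WT 2 level lay below the 75.7 CPM that 3 counts would give there, so it does not separate the genotypes. This class was not tested because WT 2 had fewer than 20 cells. In pericytes Fst had 0 UMIs among 85820 in WT and stood at 79.8 CPM over both Z/Z libraries, at least 2.28-fold above the level that 3 counts would give. Its level in empty droplets was 62.6 and 53.0 CPM in Z/Z 1 and Z/Z 2.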
